A study of Mus musculus with 4 samples.

Results

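Astrocytes clear transmitters, buffer ions and water, and share small molecules with each other, and the genes described here encode the main proteins of that work. They are the glutamate transporters Slc1a2 and Slc1a3, the GABA transporter Slc6a11, glutamine synthetase (Glul), the potassium channel Kcnj10, the water channel Aqp4, the bicarbonate cotransporter Slc4a4 and the gap junction proteins Gja1 (connexin 43) and Gjb6 (connexin 30). The members were taken by gene symbol, and all 9 of the 9 were found, among 40091 genes listed in the files. The mice modelled central post-stroke pain after thalamic haemorrhage. Both groups were WT C57BL6 mice of 7 to 8 weeks that were injected in the right VPM and VPL, the ventral posterior nuclei of the thalamus. The NS group received normal saline, and the COL group received collagenase IV at 0.01 U per 10 nl, an enzyme that digests vessel walls and so causes bleeding. Thalamic tissue was taken at day 7, and each library held nuclei from 3 pooled mice, with 2 libraries in NS and 2 in COL. The question asked of each gene was whether its level in astrocytes, or in another cell type, differed between COL and NS.

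At synapses, both glutamate transporters carry glutamate into the astrocyte together with sodium, glutamine synthetase turns it into glutamine, and the GABA transporter Slc6a11 (GAT-3) takes up GABA. Kcnj10 (Kir4.1) and Aqp4 sit densely in the endfeet that astrocytes place on vessels, and connexin 43 and connexin 30 join neighbouring astrocytes into a network. In the thalamus, astrocytic GABA uptake is known to set how much GABA stays outside the synapse.

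By the GRCm38 annotation, all 9 genes are protein coding and their identifiers in the files matched it. Slc1a2 lies on chromosome 2 (102658659 to 102790784, plus strand), Slc1a3 on chromosome 15 (8634124 to 8710764, minus strand) and Slc6a11 on chromosome 6 (114131241 to 114249952, plus strand). Glul lies on chromosome 1 (153899944 to 153909723, plus strand), Kcnj10 on the same chromosome (172341210 to 172374085, plus strand) and Aqp4 on chromosome 18 (15389496 to 15410982, minus strand). Slc4a4 lies on chromosome 5 (88886818 to 89239653, plus strand), Gja1 on chromosome 10 (56377330 to 56402513, plus strand) and Gjb6 on chromosome 14 (57123303 to 57133611, minus strand). Other annotated genes overlap Slc1a2, Slc1a3, Slc6a11, Glul and Aqp4, and whether reads were assigned by strand is not given in the sources used here.

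Of 32332 barcodes, 32291 were kept as nuclei, with median depths of 4649 to 8691 UMIs per nucleus in the 4 libraries and totals of 68723738 to 77546840 UMIs. A UMI is 1 counted RNA molecule, and CPM is a gene's UMIs relative to all UMIs of the same cell type and library, on the usual counts-per-million scale. Summed over the libraries, 204 barcodes were shared with another library. Of the thalamic markers, Lef1 was detected in 7.14% and 15.6% of NS neurons and in 24.2% and 14.1% of COL neurons, against 2.51% to 8.94% of microglia, when every nucleus was thinned to 1000 UMIs. Synpo2 was likewise highest in COL replicate 1, at 27.3% of neurons. Tcf7l2 did not separate neurons from microglia (14.5% to 37.6% against 22.9% to 32.2%), and Slc17a6 did so in the COL libraries (8.82% and 10.6% of neurons) but not in the NS libraries.

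Astrocytes were identified without the 9 genes. Clusters were named from 15 other astrocyte markers, among them Slc39a12, Bmpr1b and Rfx4, and the 9 genes and their pathway lists were left out of the clustering. Astrocyte-like nuclei, hereafter astrocytes, numbered 2773. They made up 12.5% and 10.4% of the nuclei in NS and 3.42% and 4.42% in COL, with exact 95% binomial intervals that together spanned 9.82% to 13.2% in NS and 2.97% to 4.96% in COL (counting error only). They lay in 2 clusters, one of 2224 nuclei with 1165 and 1054 from the NS libraries and 2 and 3 from the COL libraries, and one of 549 nuclei with 44, 30, 201 and 274. NS and COL astrocytes were thus held mostly by different clusters, and Slc6a11 was among the 10 leading genes of the first, although it had not been used to form it. The 15 markers summed to 3994 and 3816 CPM in NS astrocytes and 3422 and 3719 CPM in COL astrocytes, with none at 0 in any library.

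Other material in the astrocyte nuclei differed between the groups. The 8 neuronal markers summed to 1710 and 1653 CPM in NS astrocytes and to 2527 and 2266 CPM in COL astrocytes. The 10 markers of oligodendrocyte precursors (OPC) summed to 270 and 308 CPM in NS and to 522 and 565 CPM in COL, and the 7 macrophage markers to 6.91 and 13.7 CPM in NS and to 45.4 and 93.7 CPM in COL. The 10 oligodendrocyte markers overlapped (1531 and 1936 CPM in NS, 1178 and 2019 CPM in COL). COL astrocytes were also deeper, with medians of 5637 and 6543 UMIs against 3671 and 3279.5 in NS. The part of these differences in the results on astrocytes was not tested, other than by the alternatives named beside them.

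Within astrocytes, 1 of the 9 genes passed the test. Slc6a11 fell in COL, and the 8 others did not pass in either direction. The test was edgeR's quasi-likelihood test on the summed UMIs of the 4 libraries, with Benjamini-Hochberg adjustment over 14573 genes, of which 8.79% were called lower in COL and 7.53% higher. Those calls numbered 2378, and 1217 without COL replicate 1. The median log2 fold change was -0.14 over the 9 genes and -0.03 over all genes tested. The nuclei of a library are not replicates, so the unit was the library, with 2 pools of mice per group. The test also draws on the spread of the other genes, so a p-value does not rest on the gene's own spread between pools alone.

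Slc6a11 stood at 1282 and 1036 CPM in the NS libraries and at 600.0 and 638 CPM in the COL libraries. Both COL libraries lay below both NS libraries, and the means were 1159 ± 174 and 619 ± 27.0 CPM (SD, n = 2). The log2 fold change was -0.89 (SE 0.151, 95% interval -1.22 to -0.56, adjusted p = 0.00433, edgeR), which is 1.85-fold lower in COL. When every nucleus was thinned to 1000 UMIs, 68.6% and 60.9% of NS astrocytes and 42.1% and 48.7% of COL astrocytes held a Slc6a11 UMI. In macrophages of the COL libraries, which should lack the gene, the share was 0.943% and 3.19%, at median depths of 4236 and 4464.5 UMIs. The shares in COL astrocytes were thus well above the level of free RNA. UMIs per nucleus before thinning overlapped (5.07 and 3.55 in NS, 3.84 and 4.57 in COL), with COL astrocytes the deeper.

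The fall of Slc6a11 passed the test in 15 of 16 alternatives, with log2 fold changes of -1.04 to -0.50. It did not pass when likely doublets were removed and the remaining nuclei were clustered and named again, at -0.50 (SE 0.163, adjusted p = 0.0531, edgeR). With the same doublets removed and the clusters kept, an alternative chosen after seeing the data, it was -0.87 (SE 0.141, adjusted p = 0.00565, edgeR). Clustering again changed which nuclei were astrocytes, from 203 and 277 to 152 and 225 in COL and from 1209 and 1084 to 1167 and 1055 in NS. The levels were then 1342 and 1070 CPM in NS and 814 and 786 CPM in COL, so the groups still did not overlap.

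The nuclei that left the astrocytes held little Slc6a11. Of the COL astrocytes 3 and 7 were likely doublets. The search for doublets found 59.5% and 66% of simulated doublets added to the COL libraries, and 73% and 76.5% in NS. Another 50 and 44 COL astrocytes, or 24.6% and 15.9%, went to a cluster that could not be named, against 38 and 26 in NS, or 3.14% and 2.40%. That cluster, led by Glis3, Dcaf17, Cd44 and Mt1, scored almost alike on the astrocyte list and on the ependymal list, of which 0 of 6 markers passed the detection threshold. In COL these nuclei carried 28.3% and 19.3% of the astrocytes' UMIs but 2.56% and 3.95% of their Slc6a11 UMIs. Slc6a11 stood at 54.4 and 131 CPM in them, against 826 and 788 CPM in the COL nuclei that were named astrocytes again, and at 158 and 58.6 CPM in those of NS, against 1343 and 1070 CPM. The other 8 genes were lower in them as well, apart from Aqp4 in COL replicate 2. Aqp4 stood at 149.6 and 300.5 CPM in them in COL, against 203 and 254 CPM in the nuclei named astrocytes again, and they carried 22.6% and 22.2% of the COL astrocytes' Aqp4 UMIs. They held a median of 4 and 5 of the 15 markers in COL and 3 and 0 in NS, against 8 and 9 in COL and 8 and 7 in NS among the nuclei named astrocytes again. The size of the fall in Slc6a11 thus depended on whether these nuclei were counted as astrocytes. With only the nuclei that held at least 3 of the 15 markers, likewise chosen after seeing the data, the levels were 1302 and 1071 CPM in NS and 657 and 664 CPM in COL, and the log2 fold change was -0.80 (adjusted p = 0.00734, edgeR). With each nucleus named by its own markers it was -0.68 (adjusted p = 0.0196, edgeR), and without any 1 of the libraries it lay between -0.96 and -0.77.

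**Figure D1:**
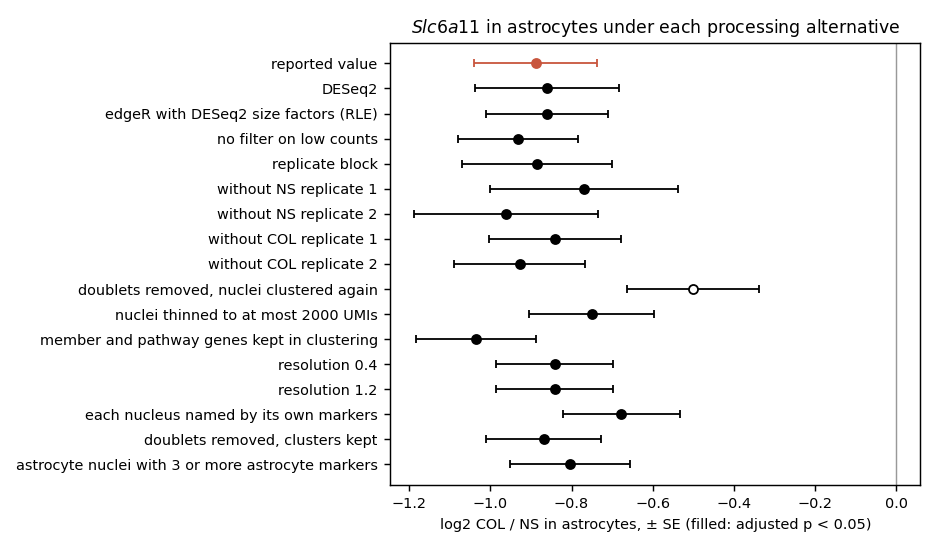
Log2 fold change of Slc6a11 in astrocytes, COL against NS (x axis), under the reported setting (red) and each of 16 alternatives (black), with bars of 1 SE and filled points where the adjusted p was under 0.05. All estimates lie below 0, from -1.04 to -0.50, and the open point is the fit with likely doublets removed and nuclei clustered again.

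The glutamate transporters did not pass the test in astrocytes. Slc1a2 (GLT-1), which carries most glutamate uptake in the forebrain, stood at 2811 and 2465 CPM in NS and at 2164 and 2569 CPM in COL. The groups overlapped, and the log2 fold change was -0.14 (95% interval -0.47 to 0.19, adjusted p = 0.556, edgeR). Slc1a3 (GLAST), the other astrocytic glutamate transporter, stood at 1506 and 827 CPM in NS and at 1022 and 932 CPM in COL. Both COL libraries lay between the NS libraries, and the estimate was -0.23 (95% interval -0.71 to 0.25, adjusted p = 0.518, edgeR). It had the opposite sign, 0.22, without NS replicate 1, the library with the highest level.

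Glul, which makes glutamine from glutamate and ammonia, stood at 169 and 200 CPM in NS astrocytes and at 161 and 196 CPM in COL astrocytes. The groups overlapped almost fully, with a log2 fold change of -0.04 (95% interval -0.44 to 0.36, adjusted p = 0.914, edgeR). At 1000 UMIs per nucleus, Glul was detected in 16.9% and 17.7% of NS astrocytes and in 17.3% of COL astrocytes in both libraries.

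Among the ion and water pathways, Kcnj10 did not pass the test. It stood at 297 and 255 CPM in NS and at 195 and 228 CPM in COL, so that the groups did not overlap. Its log2 fold change was -0.37 (SE 0.158, 95% interval -0.72 to -0.02, adjusted p = 0.136, edgeR), and -0.11 with likely doublets removed and nuclei clustered again (-0.36 with clusters kept) and -0.10 with each nucleus named by its own markers. Aqp4 stood at 195 and 226 CPM in NS and at 187 and 260 CPM in COL, and the COL libraries enclosed the NS libraries. Its estimate was 0.10 (95% interval -0.32 to 0.53, adjusted p = 0.765, edgeR), and -0.15 without COL replicate 2. Slc4a4 (NBCe1), which moves sodium with bicarbonate and so helps set pH, stood at 2720 and 2807 CPM in NS and at 2851 and 3026 CPM in COL. Here, too, the groups did not overlap, with COL the higher. The log2 fold change of Slc4a4 was 0.10 (95% interval -0.22 to 0.42, adjusted p = 0.693, edgeR). How many of all genes did not overlap between the groups was not counted.

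The gap junction genes differed in how their libraries spread. Gja1 stood at 205 and 216 CPM in NS and at 155 and 171 CPM in COL, without overlap. Its log2 fold change was -0.35 (SE 0.161, 95% interval -0.71 to 0.0015, adjusted p = 0.161, edgeR), and -0.072 with likely doublets removed and nuclei clustered again (-0.35 with clusters kept). Gjb6 stood at 89.4 and 85.9 CPM in NS and at 118 and 63.0 CPM in COL, resting on 427, 319, 154 and 125 UMIs. The COL libraries lay on both sides of the NS libraries, and the estimate of 0.04 (95% interval -0.53 to 0.60, adjusted p = 0.940, edgeR) became -0.46 without COL replicate 1 and 0.45 without COL replicate 2.

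**Figure D2:**
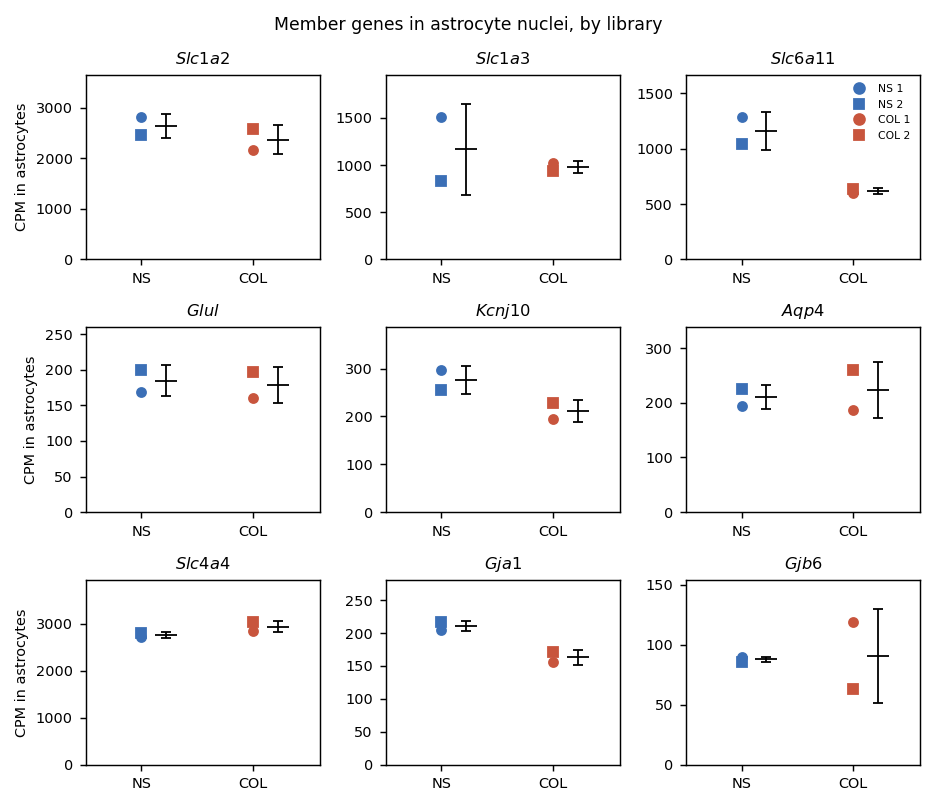
Level of each of the 9 genes in astrocytes in CPM (y axis, from 0), with 1 point per library in NS (blue) and COL (red), circles for replicate 1 and squares for replicate 2, and the group mean with 1 SD beside it (n = 2). The groups are clearly apart for Slc6a11 (1282 and 1036 against 600.0 and 638 CPM), while Slc1a2, Slc1a3, Glul, Aqp4 and Gjb6 overlap. Kcnj10 and Gja1 lie lower in COL without overlap, and Slc4a4 lies higher in COL without overlap.

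Single astrocyte nuclei held several of the 9 genes together in both groups. At 1000 UMIs, NS astrocytes had a UMI of a median of 4 of the 9 genes in both libraries, and COL astrocytes of 3 and 4. At least 4 genes were detected in 68.0% and 57.4% of NS astrocytes and in 49.5% and 51.3% of COL astrocytes. No gene of the 9 was detected in 1.16% and 0.928% of NS astrocytes and in 7.43% and 3.97% of COL astrocytes. In nuclei with at least 3 of the 15 markers this share was 0.426% in NS replicate 1, 0 of 1029 nuclei in NS replicate 2, which allows up to 0.292%, and 2.23% and 2.31% in COL, and the median number of genes was 4 in all 4 libraries. Neurons, by comparison, had a median of 0 of the 9 genes in every library.

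The wider pathways of astrocytic transport were read from 42 further genes, of which 41 could be tested in astrocytes. In COL, 6 fell and 1 rose, against 8.79% and 7.53% of all genes, and the median log2 fold change was -0.22. Gjb2 was too low to be tested.

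Of the 9 other amino acid and transmitter transporters, 3 fell and 1 rose. The glycine transporter Slc6a9 (GlyT1) fell from 186 and 192 CPM in NS to 84.6 and 118 CPM in COL (log2 fold change -0.87, SE 0.187, adjusted p = 0.0120, edgeR). Without COL replicate 1 its estimate was -0.66 (adjusted p = 0.0517, edgeR). Slc25a18, a mitochondrial glutamate carrier, fell from 242 and 209 CPM to 156 and 145 CPM (-0.57, adjusted p = 0.0339, edgeR). The call for Slc25a18 held in 7 of 16 alternatives and was lost without any 1 of the 4 libraries, at -0.62 to -0.50. It was also lost at -0.23 with likely doublets removed and nuclei clustered again, and at -0.33 with each nucleus named by its own markers.

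Slc7a11, the cystine-glutamate exchanger that supplies cystine for glutathione, rose from 286 and 259 CPM in NS to 515 and 337 CPM in COL (log2 fold change 0.66, SE 0.201, adjusted p = 0.0487, edgeR). The increase rested most on COL replicate 1, without which it was 0.33 (adjusted p = 0.249, edgeR). The call was also lost without NS replicate 1 (0.69, adjusted p = 0.0528, edgeR), without NS replicate 2 (0.66, adjusted p = 0.0671, edgeR), with nuclei thinned to 2000 UMIs (0.53) and with the 9 genes and pathway genes kept in the clustering (0.48).

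Of the 6 enzymes of glutamate and GABA turnover, 2 fell. Glutamate dehydrogenase (Glud1), which opens glutamate to oxidation, fell from 437 and 360 CPM to 263 and 256 CPM (-0.60, SE 0.154, adjusted p = 0.0245, edgeR). Aspartate aminotransferase (Got1) fell from 45.2 and 48.8 CPM to 21.5 and 25.7 CPM (-0.97, SE 0.222, adjusted p = 0.0159, edgeR). Glud1 lost its call without NS replicate 1 (-0.50), NS replicate 2 (-0.66) or COL replicate 1 (-0.62), and Got1 without NS replicate 2 (-0.84) or COL replicate 1 (-0.85). Got1 also did not pass with DESeq2 (-0.95). With each nucleus named by its own markers, neither Glud1 (-0.43) nor Got1 (-0.66) passed. With likely doublets removed, Glud1 stood at -0.33, not past the threshold, when nuclei were clustered again and at -0.59 (adjusted p = 0.0263, edgeR) with the clusters kept.

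Of the 6 metabolite carriers, 1 fell. Slco1c1, which carries thyroid hormone, went from 160 and 158 CPM to 108 and 71.0 CPM (-0.83, SE 0.209, adjusted p = 0.0234, edgeR), and its call was lost without COL replicate 2 (-0.53). Its call was also lost with likely doublets removed and nuclei clustered again (-0.45). None of the 8 ion channels, pumps and carriers, the 4 tested gap junction proteins of glia or the 8 endfoot proteins and partners passed the test. Their median log2 fold changes were -0.37, -0.24 and -0.05.

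Outside astrocytes, the 9 genes did not share one pattern. Among the 5 cell types of which each library held 20 nuclei or more (astrocytes, oligodendrocytes, OPC, microglia and neurons), 8 genes had their highest mean CPM in astrocytes and Glul had it in oligodendrocytes. The genes were chosen as genes known for astrocytes, so this is a description with no test. Glul reached 218 and 244 CPM in NS oligodendrocytes and 147 and 242 CPM in COL oligodendrocytes, or 129%, 122%, 91.6% and 123% of the astrocyte level of the same library. This spread was wide, and the order of oligodendrocytes and astrocytes for Glul turned in COL replicate 1. In microglia Glul stood at 77.1% and 77.3% of the astrocyte level in NS and at 53.3% and 62.6% in COL, against 31.0% and 48.9% in COL macrophages and 27.6% and 51.8% in COL T and NK cells.

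Kcnj10 was shared with the oligodendrocyte lineage. It stood at 149 and 147 CPM in NS oligodendrocytes and at 122 and 183 CPM in COL oligodendrocytes, or 50.1%, 57.4%, 62.6% and 80.6% of the astrocyte level. In OPC it stood at 29.6% to 35.3% of that level in the 4 libraries, and in neurons at 3.38% to 6.31%. At 1000 UMIs, Kcnj10 was detected in 9.76% and 15.4% of COL oligodendrocytes, against 1.89% and 4.47% of COL macrophages, so it stood above free RNA there.

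Slc1a2 and Slc1a3 followed astrocytes at a distance. Slc1a2 was next highest in OPC, at 407 and 356 CPM in NS and 280 and 284 CPM in COL, and it was detected in 21.9% to 31.5% of OPC nuclei at 1000 UMIs. In neurons it stood at 181, 153, 203 and 119 CPM. At 1000 UMIs, 15.7% and 9.46% of COL neurons held a UMI (median depths 15100 and 14939 UMIs). The shares were 9.43% and 7.87% in COL macrophages, and 3.77% and 12.7% in the 53 and 79 COL T and NK cells (3041 and 3043 UMIs). Before thinning, Slc1a2 stood at 3.53 and 1.96 UMIs per nucleus in COL neurons, against 0.374 and 0.434 in COL macrophages. Slc1a3 stood at 79.5 to 119 CPM in oligodendrocytes, 117 to 163 CPM in OPC and 97.9 to 210 CPM in microglia over the 4 libraries. These 3 ranges overlapped. In neurons it was far lower, at 7.37 to 18.5 CPM.

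Slc6a11, Slc4a4, Aqp4, Gja1 and Gjb6 were low outside astrocytes. In NS, Slc6a11 stood at 2.60% to 6.41% of the astrocyte level of its library over oligodendrocytes, OPC, microglia and neurons, and Slc4a4 at 1.80% to 5.46%. Aqp4 stood at 2.85% to 16%, Gja1 at 3.04% to 12.2% and Gjb6 at 3.48% to 9.04%. In COL, macrophages held Slc6a11 at 1.89% and 3.19% of the astrocyte level, Gja1 at 3.85% and 5.44% and Gjb6 at 0.562% and 3.36%. In COL oligodendrocytes, OPC, microglia and neurons, Slc6a11 stood at 1.06% to 3.15%, Gja1 at 0.987% to 4.08% and Gjb6 at 0.980% to 3.75%. These ranges largely overlapped those of macrophages, which should lack the genes, so on this scale they are not read here as expression. Within COL replicate 1, Slc6a11 in OPC (3.15%) and neurons (2.11%) lay above macrophages, as did Gjb6 in all 4 types (0.980% to 1.5%), where macrophages held 1 Gjb6 UMI. Within COL replicate 2, Gjb6 in oligodendrocytes (3.75%) and microglia (3.52%) lay above macrophages, on 24 and 6 UMIs. Aqp4 stood at 3.48% and 9.84% in COL OPC and at 4.99% and 5.11% in COL microglia, against 3.20% and 3.58% in macrophages. In COL oligodendrocytes Aqp4 stood at 2.15% and 4.08%, and in COL neurons at 1.43% and 1.98%, below macrophages. Slc4a4 stood at 3.4% and 3.55% in COL OPC and at 4.23% and 2.74% in COL neurons, against 1.75% and 2.56% in macrophages. In COL oligodendrocytes Slc4a4 stood at 1.46% and 1.47%, and in COL microglia at 1.98% and 1.97%. In UMIs per nucleus before thinning, Slc6a11 lay above macrophages (0.0535 and 0.102) in COL neurons (0.220 and 0.327) and OPC (0.152 and 0.165). It lay below them in COL oligodendrocytes (0.0368 and 0.0911) and microglia (0.0323 and 0.0829). Neurons and OPC were deeper than macrophages, and whether they expressed Slc6a11 was not tested.

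**Figure D3:**
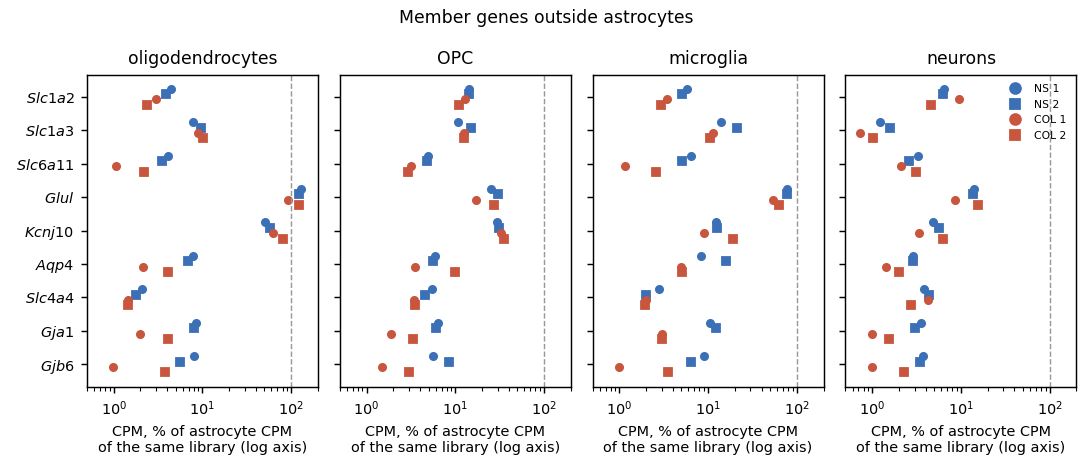
Level of each gene in oligodendrocytes, OPC, microglia and neurons as a percent of its CPM in astrocytes of the same library (log x axis, dashed line at 100%), with 1 point per library in NS (blue) and COL (red), circles for replicate 1 and squares for replicate 2. Glul in oligodendrocytes lies at 91.6% to 129% and Kcnj10 at 50.1% to 80.6%, while most other points lie under 20% and several genes lie lower in COL.

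Several of these low levels were lower still in COL. In oligodendrocytes 4 of the 9 genes fell, against 12.9% of 16710 genes called lower and 10.3% called higher. The calls over all genes numbered 3884, and 2551, 2126 and 6172 without NS replicate 1, NS replicate 2 and COL replicate 2. As in astrocytes, the groups lay in different clusters, one with 1649, 2497, 3 and 3 oligodendrocytes from NS replicates 1 and 2 and COL replicates 1 and 2, and one with 2, 9, 1626 and 1556. Slc6a11 fell from 52.6 and 36.6 CPM in NS to 6.33 and 14.0 CPM in COL (log2 fold change -2.08, SE 0.334, adjusted p = 0.00690, edgeR). Gja1 fell from 17.3 and 17.2 CPM in the NS libraries to 3.06 and 6.99 CPM (-1.74, SE 0.355, adjusted p = 0.0132, edgeR). Gjb6 fell from 7.18 and 4.81 CPM to 1.16 and 2.36 CPM (-1.69, adjusted p = 0.0271, edgeR) and Slc1a2 from 125 and 96.5 CPM to 65.6 and 60.8 CPM (-0.76, adjusted p = 0.0157, edgeR). Without NS replicate 1 the call was lost for Gjb6 (-1.43) and Slc1a2 (-0.60), and without COL replicate 1 for Gjb6 (-1.29). The other 5 genes lay between -1.03 (Aqp4) and 0.08 (Kcnj10). The 15 astrocyte markers summed to 123 and 138 CPM in NS oligodendrocytes and to 40.2 and 61.4 CPM in COL oligodendrocytes. Astrocytes held 6.16% and 5.40% of all UMIs in NS and 1.87% and 2.86% in COL. The part of these values in the result was not tested.

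Microglia showed the same 4-gene count, against 14.1% of 11948 genes called lower and 13.9% higher, with Slc1a3 in place of Gjb6, which was too low to be tested. Calls over all genes numbered 3345, and 2187 without NS replicate 2. One cluster held 319 and 339 microglia of the NS libraries and 4 and 5 of the COL libraries, while the other clusters of microglia held 1, 2, 294 and 419 and 1, 3, 73 and 119. Slc6a11 fell from 82.1 and 52.9 CPM to 6.99 and 16.6 CPM (-2.39, SE 0.370, adjusted p = 0.000764, edgeR) and Gja1 from 21.5 and 26.5 CPM to 4.66 and 5.17 CPM (-2.22, SE 0.427, adjusted p = 0.00265, edgeR). Slc1a2 fell from 164 and 124 CPM to 74.6 and 75.4 CPM (-0.90, adjusted p = 0.00463, edgeR) and Slc1a3 from 210 and 174 CPM to 115 and 97.9 CPM (-0.82, adjusted p = 0.00496, edgeR). The last pair lost their calls without NS replicate 1, at -0.68 and -0.67, and Slc1a3 also with each nucleus named by its own markers (-0.70). In COL macrophages Slc1a3 stood at 26.6 and 30.1 CPM, below COL microglia. Slc1a2 (79.2 and 86.8 CPM), Slc6a11 (11.3 and 20.3 CPM) and Gja1 (5.99 and 9.32 CPM) stood higher in COL macrophages than in COL microglia. The astrocyte markers summed to 198 and 195 CPM in NS microglia and to 48.3 and 91.2 CPM in COL microglia, and their part in the result was not tested.

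In OPC 2 of the 9 genes fell, against 9.97% of 13403 genes called lower and 8.09% higher. There were 2420 calls over all genes, and 1361 and 1415 without NS replicates 1 and 2. One OPC cluster held 307, 319, 2 and 8 nuclei of the 4 libraries, and the other 93, 113, 208 and 295, of which 15.5% were likely doublets. Slc6a11 went from 63.4 and 50.3 CPM to 18.9 and 18.8 CPM (-1.56, SE 0.219, adjusted p = 0.00103, edgeR). With likely doublets removed its estimate was -0.82 (adjusted p = 0.0308, edgeR) when nuclei were clustered again and -0.97 (adjusted p = 0.0184, edgeR) with the clusters kept, and that of Gja1 was -0.94 and -1.05, no longer past the threshold in either. Gja1 went from 13.2 and 13.1 CPM to 2.96 and 5.65 CPM, on only 5 and 15 UMIs in COL (-1.5, adjusted p = 0.0278, edgeR). The call for Gja1 was lost without NS replicate 1 (-1.53), NS replicate 2 (-1.45) or COL replicate 1 (-1.20), with DESeq2 (-1.53) and at resolution 1.2 (-1.27). The astrocyte markers went from 295 and 289 CPM in NS OPC to 235 and 263 CPM in COL OPC, and their part in the result was not tested.

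In neurons none of the 9 genes passed the test, and edgeR called 0% of 23750 genes. At an unadjusted p under 0.05 there were 6685 genes, 4 of them among the 9, and DESeq2 called 2478 genes. Those 4 were Gja1 at -1.59, Gjb6 at -1.11, Slc6a11 at -0.93 and Slc1a3 at -0.73, with adjusted p-values of 0.111 to 0.116 (edgeR), and DESeq2 called all 4. Gja1 stood at 7.28 and 6.57 CPM in NS neurons and at 1.53 and 2.64 CPM in COL neurons. The neurons of the groups, too, lay largely in different clusters, with 2855, 900, 8 and 196 nuclei of NS replicates 1 and 2 and COL replicates 1 and 2 in one, 902, 2087, 6 and 32 in another and 64, 100, 983 and 1724 in one more, while most of the other 6 clusters held both groups. Without COL replicate 2, edgeR called 5278 genes and 7 of the 9, so the neuronal counts depend on that library. The astrocyte markers summed to 136 and 143 CPM in NS neurons and to 70.4 and 103 CPM in COL neurons.

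**Figure D4:**
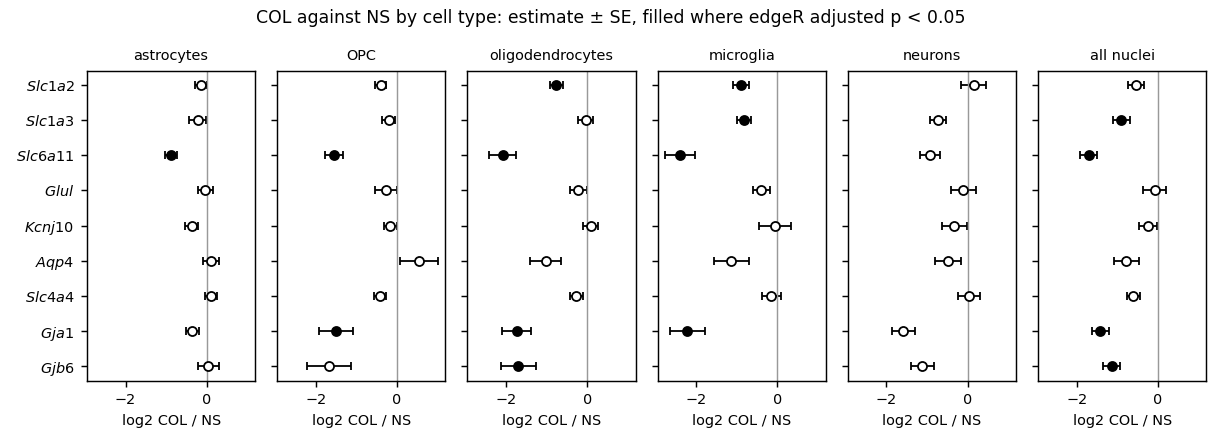
Log2 fold change of each gene, COL against NS (x axis), in astrocytes, OPC, oligodendrocytes, microglia, neurons and all nuclei, with bars of 1 SE and filled points where the edgeR adjusted p was under 0.05. In astrocytes 8 of the 9 points lie between -0.37 and 0.10, while Slc6a11, Gja1 and Gjb6 reach -2.39 to -1.5 in oligodendrocytes, OPC and microglia where they were tested.

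The difference between cell types was tested itself, as the interaction of cell type and group with the library as a block. Against oligodendrocytes, the effect in astrocytes was higher, that is less negative or more positive, for 5 of the 9 genes, where 2.03% of 17473 genes were called in that direction. They were Gjb6 (1.66, adjusted p = 0.0153, edgeR), Gja1 (1.37, adjusted p = 0.00120, edgeR), Slc6a11 (1.2, adjusted p = 0.00191, edgeR), Aqp4 (1.13, adjusted p = 0.00431, edgeR) and Slc1a2 (0.60, adjusted p = 0.0309, edgeR). Against microglia there were 4 genes, where 3.26% of 14887 were called, with Gja1 at 1.87, Slc6a11 at 1.49, Aqp4 at 1.25 and Slc1a2 at 0.76. Against neurons there were 3 genes, where 2.55% of 23784 were called, with Gja1 at 1.28, Gjb6 at 1.16 and Aqp4 at 0.63. Against OPC none of the 9 passed (0 of 9 at adjusted p under 0.05), where 2.51% of 14763 genes were called higher in astrocytes. At an unadjusted p under 0.05 there were 4 of the 9, and 1995 of the 14763 genes. With nuclei thinned to 2000 UMIs, Aqp4 against oligodendrocytes was 0.62 (adjusted p = 0.327, edgeR) and Gja1 against microglia 1.35 (adjusted p = 0.0863, edgeR). Aqp4 against microglia passed in 4 of 11 alternatives, Slc1a2 against microglia in 7 of 11 and Aqp4 against neurons in 6 of 11. Without COL replicate 1, Gjb6 was 0.76 against oligodendrocytes and 0.55 against neurons, neither past the threshold. Against OPC 4 genes passed with each nucleus named by its own markers, namely Slc6a11, Slc4a4, Gja1 and Gjb6. Calls over all genes numbered 870 against oligodendrocytes and 574 without NS replicate 2, and 921 against neurons and 543 and 558 without NS replicates 1 and 2. These 4 tests share the astrocyte sums. Relative to astrocytes, the levels of Slc6a11, Gja1 and Gjb6 in the other cell types of COL were largely not read here as expression. Slc1a2 in COL oligodendrocytes and microglia and Aqp4 in COL neurons also lay below COL macrophages on that scale. Whether those cell types changed their expression of these genes was not tested. The astrocyte markers in oligodendrocytes, microglia and neurons were lower in COL, as given above, and less so in OPC, and their part was not tested.

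Over all nuclei of a library, 4 of the 9 genes fell in COL, against 4.43% of 25570 genes called lower. Calls in both directions numbered 2416, and 1603 without NS replicate 2 and 7012 without COL replicate 2. They were Slc6a11 (-1.70, adjusted p = 0.00981, edgeR), Gja1 (-1.42, adjusted p = 0.0168, edgeR), Gjb6 (-1.14, adjusted p = 0.0272, edgeR) and Slc1a3 (-0.90, adjusted p = 0.0483, edgeR). In sums over all nuclei alone, fewer astrocyte nuclei and less RNA per astrocyte cannot be told apart. Within astrocytes, Slc6a11 passed the test (-0.89), while Gja1 (-0.35), Gjb6 (0.04) and Slc1a3 (-0.23) did not. The other 5 genes lay between -0.78 (Aqp4) and -0.08 (Glul). Without NS replicate 1 the calls for Gjb6 (-1.14) and Slc1a3 (-0.58) were lost, as they were for Gjb6 without NS replicate 2 (-1.14) and for Slc1a3 without COL replicate 1 (-0.84), with DESeq2 size factors in edgeR (-0.91) and with likely doublets removed (-0.90).

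The share of each gene's UMIs that lay in astrocytes had a lower mean in COL for all 9 genes, with the smallest differences for the gap junction genes. Of all Gja1 UMIs, 55.5% and 52.7% lay in astrocytes in NS and 49.9% and 51.3% in COL, and of all Gjb6 UMIs 55.4% and 50.4% in NS and 58.8% and 44.5% in COL. For Slc6a11 the shares were 59.2% and 59.6% in NS and 45.8% and 46.9% in COL, without overlap. For Slc1a2 they were 47.0% and 45.8% in NS and 18.7% and 38.9% in COL, where neurons held 68.7% of the UMIs in COL replicate 1. For Kcnj10 they were 35.6% and 24.9% in NS and 12.3% and 12.1% in COL, and oligodendrocytes held 56.2% and 50.0% of the COL UMIs. For Glul they were 18.6% and 14.0% in NS and 7.55% and 7.28% in COL. With 2 libraries against 2, the two-sided exact permutation test gave p = 0.33, the smallest p this design allows, for each gene but Gjb6 (exact p = 1). The share of nuclei that were astrocytes was itself 12.5% and 10.4% in NS and 3.42% and 4.42% in COL. Astrocytes held 6.16% and 5.40% of the UMIs of all genes in NS and 1.87% and 2.86% in COL. The part of both in these shares was not tested, and how many of all genes had lower shares was not counted.

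**Figure D5:**
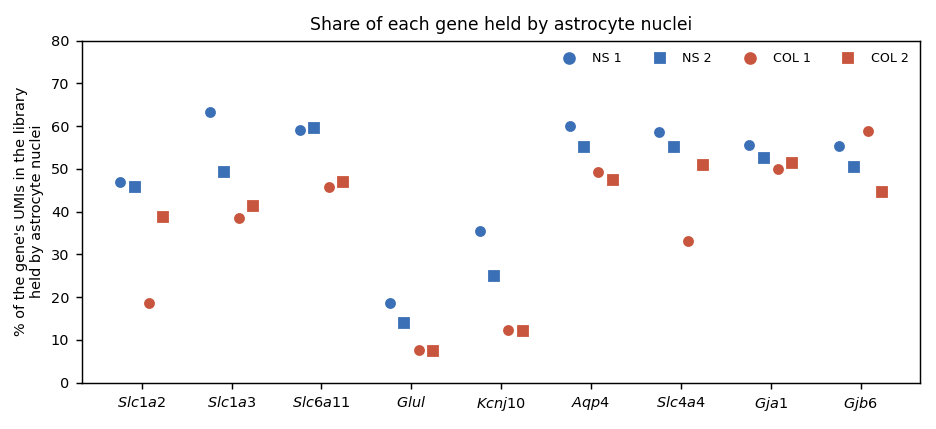
Share of each gene's UMIs in a library that lay in astrocyte nuclei (y axis, percent, from 0), with 1 point per library in NS (blue) and COL (red), circles for replicate 1 and squares for replicate 2. The COL points lie below the NS points for 8 of the 9 genes, and Gjb6 overlaps. Astrocytes' share of all UMIs was also lower in COL (1.87% and 2.86%) than in NS (6.16% and 5.40%), and the same count over all genes was not made.

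The members' joint pattern was compared with that of other genes. Over the 20 sums of 5 cell types in 4 libraries, and among 10661 genes with a mean of at least 10 CPM, those most like the mean of the 9 genes were Slc41a1 (Pearson's r 0.978), Mlc1 (0.970), Slc25a18 (0.969), Cbs (0.969) and Ttc23 (0.965). The 20 sums share libraries and cell types, so r is given as a description. Against the mean of the other 8, Gja1 (0.968), Gjb6 (0.961) and Aqp4 (0.960) were the most alike among the members and Glul (0.546) and Kcnj10 (0.734) the least.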

How the data were processed

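Nuclei of the thalamus were sequenced on the 10x Chromium system in 4 libraries. The submitters' processing notes name Cell Ranger 1.2.0 and mm10 for counting UMIs per gene and barcode, and the values the authors deposited are raw counts with no normalization. The first barcodes of every library begin AAACCC, as in the barcode list of a later kit than the one named in the methods, so the kit and the version are given as stated and are uncertain. Whether intronic reads were counted is not given in the sources used here. Nuclei with more than 50 genes and under 5% mitochondrial UMIs were kept. Seurat 5.3.0 clustered them (log-normalization, 4985 variable genes, 15 components, resolution 0.8), with the 9 genes and 42 pathway genes left out. Clusters were named from marker lists when at least 3 markers were detected and the list led the next. Clusters of mostly doublets by simulated pairs (1398 nuclei) and 1934 unnamed nuclei stayed out of named types. Likely doublets were removed only as alternatives, with the remaining nuclei clustered and named again or with the clusters kept. The unnamed nuclei held 1 cluster of 1483, nearly all NS, that scored highest on oligodendrocyte markers but had an OPC marker among its leading genes.

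UMIs were summed per library and cell type and tested with edgeR 4.0.16 (TMM, filterByExpr, quasi-likelihood test, Benjamini-Hochberg, threshold 0.05). The tests were tried on simulated counts with known changes. DESeq2 1.42.0 was an alternative. Sums of UMIs ranged from 1300054 to 4776918 per library in astrocytes. The members and gene lists were chosen with earlier results of these data known. Named genes were the 9 members everywhere, pathway genes past the threshold in astrocytes (1 of them, included in the counts, is not reported here), and the 5 most alike genes.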

Additional observations from a re-analysis of the deposited data

Results flagged for a closer look

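For 12 pairs of a gene and a cell type, the COL effect in astrocytes differed from that in another cell type by edgeR's interaction test, in each case being higher in astrocytes, on the log2 scale. Relative to astrocytes, Slc6a11, Gja1 and Gjb6 in the other types of COL largely overlapped macrophages, which should lack the genes. On that scale they were not read as expression. In NS, macrophages were too few for this comparison (2 and 4 nuclei). The 15 astrocyte markers also went from 123 and 138 CPM in NS to 40.2 and 61.4 CPM in COL oligodendrocytes and from 198 and 195 to 48.3 and 91.2 CPM in microglia, and their part was not tested. Aqp4 and Slc1a2 were not among the genes set aside, although some of their levels also lay below macrophages on that scale. Slc1a2 stood at 3.03% and 2.37% in COL oligodendrocytes and at 3.45% and 2.93% in COL microglia, against 3.66% and 3.38% in macrophages. Aqp4 stood at 1.43% and 1.98% in COL neurons and at 2.15% and 4.08% in COL oligodendrocytes, against 3.20% and 3.58%. In COL microglia Aqp4 lay above macrophages (4.99% and 5.11%). Whether expression of any of these genes changed in the other cell types was not tested. Against oligodendrocytes the pairs were Gjb6 (1.66), Gja1 (1.37), Slc6a11 (1.2), Aqp4 (1.13) and Slc1a2 (0.60). Against microglia they were Gja1 (1.87), Slc6a11 (1.49), Aqp4 (1.25) and Slc1a2 (0.76), and against neurons Gja1 (1.28), Gjb6 (1.16) and Aqp4 (0.63). Gja1 and Slc6a11 against oligodendrocytes, Slc6a11 against microglia and Gja1 against neurons passed in 11 of 11 alternatives each, and Gja1 against microglia in 10 of 11. Aqp4 against microglia passed in 4 of 11. With nuclei thinned to 2000 UMIs, Aqp4 against oligodendrocytes (0.62) and against neurons (0.46) did not pass, nor did Gja1 (1.35), Slc1a2 (0.54) and Aqp4 (0.89) against microglia, which left 1 of the 4 genes there. Gjb6 against oligodendrocytes (0.76) and against neurons (0.55) did not pass without COL replicate 1. Slc1a2 against oligodendrocytes was 0.43 without NS replicate 1, 0.70 without NS replicate 2 and 0.38 without COL replicate 2, none past the threshold, and against microglia 0.60 without NS replicate 1 and 0.61 without COL replicate 2, likewise. With no filter on low counts, Slc1a2 (0.555) and Aqp4 (1.05) against microglia did not pass. Aqp4 against neurons was 0.57, 0.56 and 0.41 without NS replicate 1, NS replicate 2 and COL replicate 1 and 0.60 with likely doublets removed and clusters kept, and against microglia 0.69, 1.12 and 1.24 without NS replicate 2, COL replicate 1 and COL replicate 2, none past the threshold. Aqp4 against microglia was also not past it with likely doublets removed and nuclei clustered again (1.09) and with each nucleus named by its own markers (1.19). No group had the 4 samples needed to test for a library far from the others.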

How the results depend on the processing

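The count of the 9 genes past the threshold in astrocytes was 1 in 15 of 16 alternatives and 0 with likely doublets removed and the remaining nuclei clustered and named again, which also moved 50 and 44 COL nuclei out of the astrocytes. With the same doublets removed and the clusters kept, an alternative chosen after seeing the data, it was 1. Doublets removed means the first of these below unless clusters kept is said. It became 2 in oligodendrocytes without NS replicate 1, and without each library it ranged from 2 to 6 there. In neurons it was 4 with DESeq2, 1 with thinning to 2000 UMIs, 1 with the replicate block and 0 to 7 without each library. In OPC it was 1 with DESeq2, with doublets removed, with doublets removed and clusters kept, with thinning and at resolution 1.2, and 1 to 4 without each library. Over all nuclei it was 7 with no filter on low counts and 7 with thinning, and 2 to 7 without each library. For the effects in astrocytes against other types it was 1 to 4 without each library against neurons, 2 with no filter and 1 with thinning against microglia, and against OPC 4 with each nucleus named by its own markers, 1 with at least 3 markers required and 0 to 1 without each library. The median change in the astrocytes' share of UMIs was -13.0 percentage points and -23.0 with doublets removed. With the replicate block, chosen by label number only, astrocytes kept 1 called gene, Slc6a11 at -0.89. Same-numbered libraries deviated together with r = 0.0452 to 0.163, and 2 pairs do not show a pairing. Among astrocyte estimates that were past no threshold, Slc1a2 was 0.15 with doublets removed and 0.052 by own markers, Slc1a3 0.063 and Glul 0.24 with doublets removed, Glul 0.15 by own markers, Aqp4 -0.12 with thinning and Slc4a4 -0.0495 with the members kept in clustering. Without each library, Slc1a3 ranged from -0.53 to 0.22, Glul from -0.19 to 0.17, Aqp4 from -0.15 to 0.32 and Gjb6 from -0.46 to 0.45. The cause of each change was not tested. Genes called in astrocytes numbered 2378, 1218 with DESeq2, 1134 with thinning and 1217 to 2411 without each library. In oligodendrocytes they numbered 3884 and 2126 to 6172 without each library, in microglia 3345, 1701 with DESeq2, 2175 by own markers and 2187 to 3711 without each library, and in OPC 2420, 1029 with DESeq2, 1008 with thinning and 1361 to 3426 without each library. In neurons they numbered 0, 2478 with DESeq2, 116 with no filter, 807 with the replicate block, 826 with thinning and 0 to 5278 without each library. Over all nuclei they numbered 2416, 4533 with DESeq2, 6893 with no filter, 5563 with the replicate block, 3765 with thinning and 1603 to 7012 without each library. For the effects in astrocytes against other types they numbered 870 against oligodendrocytes (519 with thinning), 921 against neurons (474 by own markers, 447 with thinning), 966 against microglia (258 by own markers) and 508 against OPC (167 by own markers, 215 with thinning). A library left alone in its group was assumed to vary like the other group. Gjb6 rested on 125 to 427 UMIs per library in astrocytes, which limits its precision.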

Other observations

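Outside astrocytes, the 42 pathway genes moved in both directions. In oligodendrocytes 8 of 41 tested genes fell in COL and 3 rose, where 12.9% and 10.3% of all genes did. In microglia 6 of 35 fell and 5 rose, close to the 14.1% and 13.9% of all genes. In OPC 8 of 39 fell and 1 rose, where 9.97% and 8.09% of all genes did, and 4 of the fallen were amino acid and transmitter transporters. In neurons edgeR called 0 of 41, as it called 0 genes in all, against 6685 genes at an unadjusted p under 0.05 and 2478 by DESeq2. The medians of the log2 fold changes were -0.13 in oligodendrocytes, 0.04 in microglia and -0.27 in OPC. The few NS nuclei in the astrocyte cluster that held most COL astrocytes, 44 and 30, had Slc6a11 at 242 and 120 CPM and a median of 3 and 0.5 astrocyte markers, against 599 and 635 CPM and medians of 7 and 9 markers in the COL nuclei of that cluster.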
